A study of Mus musculus with 4 samples.

Results

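The 10 genes described here are the chemokine genes Ccl2, Ccl3, Ccl4, Ccl7 and Ccl12, the receptor genes Lyve1 and Mrc1, the ficolin gene Fcna, the platelet factor gene Pf4 and the oxidase subunit gene Cybb, out of 32285 features in each library. They were followed in macrophages and in all other cells of the embryonic mouse nose. A cell was kept with at least 500 genes detected and at most 10% of its UMIs (unique molecular identifiers, which count captured RNA molecules) from mitochondrial genes. A kept cell was called a macrophage where at least 4 of the 6 genes C1qa, C1qb, C1qc, Csf1r, Fcer1g and Tyrobp had a UMI. Of 13739 kept cells, 228 met that rule and 13511 did not. The genes were proposed with earlier results of these data known, and which values chose them is not recorded. Their level in macrophages against other cells and their difference between control and mutant libraries are therefore descriptions and not independent findings.

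Macrophages take up debris, pathogens and spent proteins through scavenger receptors, and they call in other leukocytes by releasing chemokines. The Ccl2, Ccl7 and Ccl12 proteins attract monocytes through the receptor Ccr2, and the Ccl3 and Ccl4 proteins attract monocytes and lymphocytes. In many fetal and adult tissues, macrophages that have settled there carry the hyaluronan receptor Lyve1 and the mannose receptor Mrc1.

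Whole noses were taken at embryonic day 14.5, dissociated with papain and collagenase at 37 °C, frozen, thawed and profiled with a droplet 3′ single-cell assay in 4 libraries. The 2 control libraries carry the genotype C57Bl/6J in the sample labels, whereas the series' design text names yap flox/flox;taz flox/flox embryos without Cre. The 2 mutant libraries are labelled with the transgene Tg(Sox10-cre)1Wdr and the alleles Yapflox and Tazflox on C57Bl/6J, and the design text gives them Sox10cre with 1 floxed copy of yap and both of taz. Sox10-Cre acts in neural crest derivatives, a lineage that macrophages do not belong to. All groups share the age, the tissue and the dissociation. Whether a library came from 1 embryo is not stated, so p-values measure only the spread between these libraries. The protocol names 2 sequencing centres and assigns no library to either, and a difference between centres cannot be told apart from the groups.

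Kept cells numbered from 2474 to 4195 per library with median depths of 5282 to 8549 UMIs, and libraries shared 3 to 5 cell barcodes in each pair. The libraries gave 57 (control 1), 59 (control 2), 34 (mutant 1) and 78 (mutant 2) macrophages, with median depths of 9704, 8761, 10314 and 7657 UMIs. All 6 defining genes were detected in 188 of the 228 macrophages. The targeted gene Yap1 had 0, 2, 0 and 1 UMIs in these cells. Wwtr1, which encodes TAZ, had 8, 9, 0 and 5, fewer in both mutants than in both controls. These counts are too few to tell whether the macrophages of the groups differ in either gene. In the other cells Yap1 stood at 66.1 and 67.1 CPM, the UMIs of a gene per 1000000 UMIs of the summed cells, in controls and at 57.2 and 57.3 in mutants, and Wwtr1 at 120.2 and 149.3 against 124.3 and 134.9. A 3′ count may still read RNA of a deleted allele, and neural crest derivatives were not separated from the rest of these cells.

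Macrophages made up 1.40% of kept cells in control 1 (exact binomial 95% interval 1.06 to 1.81%), 2.38% in control 2 (1.82 to 3.07%), 1.14% in mutant 1 (0.787 to 1.58%) and 1.86% in mutant 2 (1.47 to 2.32%). The groups overlapped. The mutant mean was lower by 0.394 percentage points, from 1.89% to 1.50%, and an exact two-sided permutation test gave p = 0.67, where 2 against 2 libraries cannot go below 0.33. Without control 2 the difference was 0.0985 points in the other direction. These intervals cover counting error only.

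The 5 chemokine genes lie on mouse chromosome 11 in clusters. In GRCm38 coordinates (GENCODE annotation), Ccl2 occupies chr11:82035571-82037453, Ccl7 chr11:82045712-82047525 and Ccl12 chr11:82101845-82103400, all on the plus strand with gaps of 8.26 and 54.3 kb. Farther along, Ccl3 lies on the minus strand at chr11:83647844-83649355 and Ccl4 on the plus strand at chr11:83662584-83664683, 13.2 kb apart. The others are scattered, with Mrc1 at chr2:14229392-14332057 (+), Fcna at chr2:25624666-25628030 (-), Pf4 at chr5:90772435-90773383 (+), Lyve1 at chr7:110850607-110863239 (-) and Cybb at chrX:9435252-9487771 (-). No stretch of 31 bases was shared between the annotated transcripts of any pair of the 10 genes, so reads of that length tell them apart.

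Promoter windows from 250 bases before to 50 after the start site were found for 6 of the genes in the RefSeq table (GRCm38.p6). Mrc1 and Pf4 are shown because their RNAs were found together in most macrophages, Ccl12 because its RNA was found with Mrc1, and Ccl3 because its RNA was not tied to either. Each is written 5′ to 3′ on the strand of the gene, with capitals for the PU.1 box GAGGAA, bound by a factor needed for macrophage development, and for the TATA box TATAAA, both read on either strand.
Mrc1, chr2:14229164-14229463 (+): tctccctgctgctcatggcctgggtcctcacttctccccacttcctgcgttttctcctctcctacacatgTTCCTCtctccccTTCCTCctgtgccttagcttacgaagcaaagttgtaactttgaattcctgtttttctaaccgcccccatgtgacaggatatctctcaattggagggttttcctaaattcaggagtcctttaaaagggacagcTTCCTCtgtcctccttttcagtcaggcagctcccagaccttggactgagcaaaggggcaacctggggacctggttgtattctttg
Pf4, chr5:90772185-90772484 (+): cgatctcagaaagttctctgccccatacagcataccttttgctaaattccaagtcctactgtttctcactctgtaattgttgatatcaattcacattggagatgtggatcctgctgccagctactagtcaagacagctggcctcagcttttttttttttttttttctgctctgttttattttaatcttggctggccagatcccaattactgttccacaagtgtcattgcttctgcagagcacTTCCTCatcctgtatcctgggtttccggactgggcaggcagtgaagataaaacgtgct
Ccl12, chr11:82101595-82101894 (+): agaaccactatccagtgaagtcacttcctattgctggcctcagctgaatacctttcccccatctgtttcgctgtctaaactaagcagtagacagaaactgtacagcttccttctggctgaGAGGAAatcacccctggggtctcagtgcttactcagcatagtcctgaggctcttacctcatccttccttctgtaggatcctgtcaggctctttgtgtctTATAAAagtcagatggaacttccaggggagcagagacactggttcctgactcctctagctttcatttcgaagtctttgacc
Ccl3, chr11:83649329-83649628 (-): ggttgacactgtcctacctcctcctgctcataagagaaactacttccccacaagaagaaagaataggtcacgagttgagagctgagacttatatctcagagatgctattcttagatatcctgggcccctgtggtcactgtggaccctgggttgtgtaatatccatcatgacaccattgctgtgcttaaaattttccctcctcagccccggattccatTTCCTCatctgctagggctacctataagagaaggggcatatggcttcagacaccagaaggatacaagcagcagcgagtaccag
All 6 windows, those of Fcna and Cybb included, held GAGGAA, which 28.3% of the 32851 windows in the table hold. TATAAA was in the Ccl12 window alone, against 13.6% of all windows, and the AP-1 site TGANTCA in the Cybb window alone, against 7.81%. No match overlapped another in the windows shown. These are matches of letters and not evidence of binding.

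For 9 of the 10 genes most RNA lay in the few macrophages, and Ccl7 was divided. Of the UMIs counted over the 4 libraries, macrophages held 98.3% for Ccl12, 98.2% for Lyve1, 97.2% for Fcna, 96.9% for Mrc1 and 92.3% for Pf4. The share was 84.5% for Ccl4, 84.3% for Ccl3, 70.2% each for Ccl2 and Cybb, and 57.1% for Ccl7. In single libraries the Ccl7 share was 78.3, 48.4, 49.0 and 46.7%, so the pooled value rests on control 1. The macrophage level over the level in other cells was, as the mean log2 ratio of the 4 libraries, 11.35 ± 0.71 (SD) for Ccl12 and 10.62 ± 0.48 for Mrc1. It was 6.76 ± 0.51 for Ccl2 and 5.97 ± 1.27 for Ccl7. The remaining RNA had different sources for different genes.

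**Figure D1:**
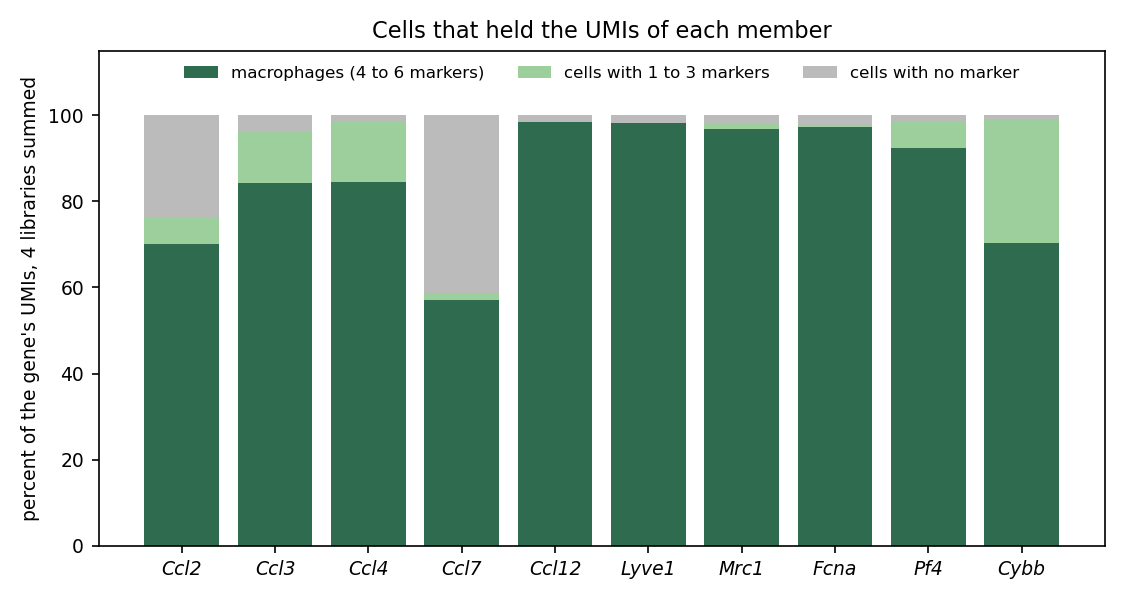
Percent of each gene's UMIs, summed over the 4 libraries, in macrophages, in cells with 1 to 3 of the 6 macrophage genes and in cells with none. Ccl2 and Ccl7 leave 23.9% and 41.5% of their UMIs in cells with none of the 6 genes, whereas the rest of Cybb, 28.9%, lies in cells with 1 to 3 of them.

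Ccl2 and Ccl7 were also found in mesenchymal-like cells, defined by at least 4 of Pdgfra, Prrx1, Twist1, Col1a2, Col3a1 and Lum. Among 9723 such cells with a median of 6841 UMIs, 197 (2.03%) had a Ccl2 UMI and 154 (1.58%) a Ccl7 UMI. Cells with none of the 6 macrophage genes held up to 31 Ccl2 UMIs and up to 22 Ccl7 UMIs, and the highest Ccl2 value among the mesenchymal-like cells, 54 UMIs, also occurs as the highest among cells with 1 to 3 macrophage genes. Epithelial cells, with a deeper median of 11772 UMIs, gave 3 of 939 cells (0.319%) for Ccl2 and 0 of 939 for Ccl7, which allows a share of up to 0.319%. The mesenchymal shares were thus above the epithelial ones, and the part of free RNA in either was not tested. Ccl12 from the same cluster was found in 8 of the 9723 mesenchymal cells (0.0823%). Endothelial-like cells, with at least 4 of Cdh5, Pecam1, Kdr, Egfl7, Emcn and Cldn5, had a higher pooled Ccl2 share than mesenchymal-like cells. In control 2 the order was the other way, at 3.45% of 29 endothelial-like against 4.72% of 1844 mesenchymal-like cells. The part of their greater depth in the pooled share was not tested. Of 226 such cells with a median of 10920.5 UMIs, 12 (5.31%) had a Ccl2 UMI, with up to 26 in a cell. None of them had a Ccl7 UMI.

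Cybb outside macrophages was found in part in other leukocytes. It encodes the catalytic chain of the phagocyte NADPH oxidase, which makes superoxide. All 14 cells that passed a monocyte rule (at least 4 of Ly6c2, Plac8, Ccr2, S100a4, Chil3 and Hp) had Cybb, with 60 UMIs in all, and 6 of 9 cells that passed a dendritic rule did. The same monocyte cells had 55 Ccl4 UMIs, 23 Ccl2 UMIs and 18 Ccl3 UMIs but no Lyve1, Fcna or Ccl7 UMI. A single cell passed the neutrophil rule, and it held 17 Cybb UMIs. Cells with 1 to 3 macrophage genes held 157 Cybb UMIs and cells with none held 5, more than the cells of these rules held.

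Outside macrophages, 1 cell held much of the Pf4 RNA. The Pf4 protein, a chemokine known from platelet granules, is made in bulk by megakaryocytes, and 1 cell of mutant 1 held 499 Pf4 UMIs among 4963 UMIs. That cell also had 81 UMIs of Ppbp, 46 of Gp9 and 5 of the 6 megakaryocyte genes tested, with no Mrc1 or Lyve1 UMI. Pf4 was also detected in 30 of 226 endothelial-like cells (13.3%), with up to 13 UMIs in a cell, against 10 of 939 epithelial cells (1.06%). Lymphatic endothelium is known to carry both Lyve1 and Mrc1. A rule for it, at least 4 of Prox1, Flt4, Ccl21a, Pdpn, Reln and Mmrn1, was passed by 18 cells with a median of 29314.5 UMIs. Of these, 9 had Mrc1 and only 1 had Lyve1, and the part of depth or of a second cell in these barcodes was not tested.

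At the edge of the macrophage rule the genes thinned out. The 11 cells with exactly 4 of the 6 macrophage genes had a median of 2 of the 10 genes detected, with Pf4 in 8 and Lyve1 in 1. The 32 cells with exactly 3 also had a median of 2, with Cybb in 18, Ccl2 in 12 and Lyve1 in none. The 29 cells with exactly 5 had a median of 3, and cells with all 6 had a median of 6. Depth differed too, with medians of 8766.5, 5116, 3557 and 9258 UMIs in cells with 3, 4, 5 and 6 macrophage genes. The part of depth in these counts was not tested.

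Within macrophages, 8 of the 10 genes were lower in both mutant libraries than in both controls. The 8 were Ccl2, Ccl4, Ccl7, Ccl12, Lyve1, Mrc1, Fcna and Pf4, while Cybb was higher in both mutants and Ccl3 overlapped. Among all 6909 genes tested in macrophages, 19.1% were lower without overlap and 16.2% higher without overlap. No gene of the 6909, and so 0% and none of the 10, reached an adjusted p of 0.05 in edgeR's quasi-likelihood test with Benjamini-Hochberg adjustment, where 361 had an unadjusted p below it. DESeq2 called 9 genes, edgeR with no filter on low counts 140, and edgeR without 1 library from 77 (without control 2) to 140 (without mutant 2), with 122 without control 1 and 95 without mutant 1. Since this contrast was known when the genes were proposed, nothing is read from the count of 8.

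**Figure D2:**
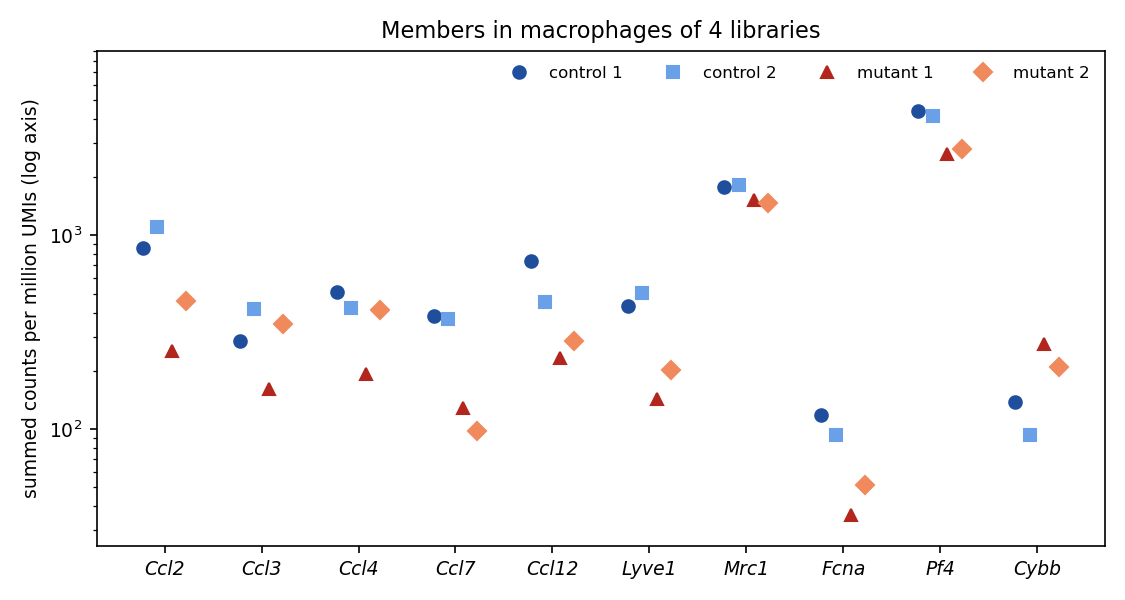
Level of each gene in CPM in the summed macrophages of each library, on a log axis, 1 point a library. The mutant points of Ccl7, Lyve1 and Ccl2 lie farthest below the controls, those of Mrc1 lie close to them, and Cybb is the gene with both mutant points above both controls.

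Ccl7, a ligand of Ccr2, showed the widest gap. Its level was 386 and 373 CPM in controls 1 and 2 against 128 and 98.2 in mutants 1 and 2, a log2 difference of -1.74 ± 0.21 (SE) with an adjusted p of 0.078 in edgeR. Its share of cells went the same way. After every macrophage was thinned at random to 3000 UMIs, which left 53, 47, 29 and 75 cells and put aside 4, 12, 5 and 3 shallower ones, Ccl7 was detected in 34.0, 40.4, 17.2 and 17.3% of them. Before thinning the shares were 40.4, 47.5, 23.5 and 21.8%.

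Ccl2, the main monocyte attractant of the family, stood at 859, 1105, 254 and 460 CPM in the same order, a log2 difference of -1.41 ± 0.26. Both mutant libraries were below both controls, and mutant 1 was the lowest. Thinned cells with a Ccl2 UMI made up 52.8, 72.3, 20.7 and 46.7%. Among cells with the RNA, the mean was 13.7 and 16.5 UMIs in controls and 6.60 and 6.28 in mutants.

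Ccl12 measured 738, 456, 233 and 285 CPM, with a log2 difference of -1.17 ± 0.25 and thinned shares of 56.6, 42.6, 37.9 and 34.7%. Control 1 was far above control 2, and without it the difference was -0.77 against -1.48 without control 2. Ccl3 and Ccl4 differed less. Ccl4 stood at 511, 423, 192 and 411 CPM (log2 -0.58 ± 0.29), with mutant 2 just under control 2. Its share in thinned cells was 28.3, 34.0, 27.6 and 37.3% and overlapped, so its lower sum was not matched by fewer cells with a UMI. Ccl3 measured 287, 417, 161 and 351 CPM (log2 -0.40 ± 0.32), and here mutant 2 exceeded control 1. Leaving out mutant 1 took the Ccl3 difference to 0.0085 and that of Ccl4 to -0.17.

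Lyve1, the hyaluronan receptor of lymphatic vessels and of tissue macrophages, stood at 432 and 503 CPM in controls and at 143 and 203 in mutants, a log2 difference of -1.39 ± 0.21. Thinned cells with Lyve1 made up 35.8, 42.6, 13.8 and 22.7%, with no overlap. The RNA was unevenly spread over cells. The top 10% of macrophages held 48.5 and 60.1% of Lyve1 UMIs in controls and 82.1 and 72.3% in mutants. In mutant 1 the top 10% were 4 of 34 macrophages, which together had 56 Lyve1 UMIs. This was not particular to Lyve1, since the top 10% also held a larger share in both mutants for Ccl2, Ccl7, Ccl12, Fcna and Pf4. For Ccl3, Ccl4 and Mrc1 the groups overlapped, and for Cybb the share was smaller in both mutants.

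Mrc1, which binds mannose-bearing glycoproteins and collagen fragments, was nearly level. It stood at 1774, 1828, 1529 and 1479 CPM, a log2 difference of -0.23 ± 0.14, with thinned shares of 83.0, 83.0, 72.4 and 78.7%. The groups did not overlap, but the gap was small beside those of Lyve1 and Ccl7. Fcna encodes a secreted ficolin that binds sugars on microbes and starts the lectin pathway of complement. It had 72, 57, 14 and 33 UMIs in all, or 119, 93.1, 35.9 and 51.4 CPM (log2 -1.21 ± 0.28), and its total was the lowest of the 10 genes.

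Pf4 stood at 4391 and 4157 CPM in controls and at 2644 and 2812 in mutants, a log2 difference of -0.62 ± 0.13. The levels within each group were close. Megakaryocyte genes were almost absent from these cells, with 2, 1, 2 and 9 UMIs over the 6 genes tested and Gp9, Gp1bb and Gp1ba at 0 in every library. Cybb went the other way, at 138 and 93.1 CPM in controls and at 274 and 209 in mutants (log2 1.07 ± 0.25). Its thinned shares were 26.4, 27.7, 51.7 and 37.3%.

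The other lists of macrophage genes showed no call in this contrast, and their medians are given as descriptions beside a median log2 difference of 0.0068 over all 6909 genes. Complement and opsonin genes had a median of 0.11 over 10 genes. C1qa, which also defines the macrophages, measured 1465, 1368, 1558 and 1430 CPM, whereas Fcgr2b measured 90.7, 27.8, 82.0 and 91.9 CPM and varied more. Partners of Cybb in the oxidase had a median of 0.29 over 5 genes. Chemokine receptors had a median of 0.56 over 5 genes, with Ccr1 at 114, 75.2, 156 and 120 CPM. Other chemokines had a median of -0.31 over 7 genes, and Ccl24, which attracts eosinophils, measured 211, 283, 156 and 206 CPM. The 13 other scavenger and endocytic receptors had a median of -0.047 and the 10 resident macrophage genes one of -0.061. Inflammatory activation genes (0.16 over 11), immediate early and stress genes (-0.018 over 20), microglia genes (0.29 over 5) and proliferation genes (-0.16 over 10) also had no member called.

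Genes of other cell types in the macrophage barcodes also differed between libraries. The 6 mesenchymal genes summed to 340, 392, 33.3 and 383 CPM, and in mutant 1 only Col1a2 of the 6 was above 0. Monocyte genes summed to 391, 126, 392 and 287 CPM with Chil3 at 0 throughout, and dendritic genes to 293, 75.2, 238 and 103 CPM with Xcr1 at 0 throughout. Erythroid genes summed to 72.5, 7253, 2.56 and 20.3 CPM and mast cell genes to 16.5, 825, 5.12 and 3.12 CPM, where 1 macrophage barcode of control 2 passed each of those rules. Epithelial genes summed to 6.59, 1.63, 5.12 and 212 CPM, with 3 barcodes of mutant 2 passing that rule. The part of these sums in the differences between groups was not tested. An alternative left out macrophages that passed any rule for another cell type except those for monocytes and dendritic cells. There edgeR called 4 of 6168 genes, with Ccl7 at -1.67 (adjusted p 0.0127) and Lyve1 at -1.53 (adjusted p 0.0274) among them. That alternative was chosen after seeing the data. Over 13 alternatives the log2 difference ranged from -1.94 to -1.52 for Ccl7, -1.65 to -1.19 for Lyve1 and -1.90 to -1.08 for Ccl2. It ranged from -1.48 to -0.77 for Ccl12, -0.72 to -0.57 for Pf4, -1.51 to -1.02 for Fcna and -0.29 to -0.19 for Mrc1. The ranges were -1.23 to -0.17 for Ccl4, -1.07 to 0.0085 for Ccl3 and 0.81 to 1.39 for Cybb. Calls at an adjusted p of 0.05 were not confined to the alternative chosen after seeing the data. Of the 13, Ccl7 and Lyve1 were called in 8 each, Ccl2 in 7, Ccl12 in 5 and Pf4 in 4. Fcna and Cybb were called in 3 each, Ccl3 and Ccl4 in 1 each and Mrc1 in 0. The 13 include the fits without 1 library, which leave 1 in its group. The genes were proposed with this contrast known, so nothing is read from these ranges or counts.

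In the mesenchymal-like cells, where both genes were well enough counted to be tested, Ccl2 stood at 4.88 and 21.4 CPM in controls 1 and 2 against 2.71 and 3.91 in mutants 1 and 2. Ccl7 measured 2.86, 16.9, 2.46 and 3.24 CPM. For both genes control 2 stood apart from the other 3 libraries. The Ccl2 groups did not overlap, which held for 14% of 16349 genes in that direction, and the Ccl7 groups overlapped. The log2 differences were -2.0 ± 0.63 (SE) for Ccl2 and -1.80 ± 0.72 for Ccl7, with adjusted p of 0.587 and 0.670 in edgeR, which called 0 of the 16349 genes. Before adjustment 1184 genes reached 0.05, and DESeq2 called 60. Without control 2 the differences were -0.61 and -0.049, so their size rests on that library. This fit was added after seeing the data.

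Within macrophages, the genes were read cell by cell after thinning to 3000 UMIs, which keeps a deeply read cell from showing more genes for that reason alone. For each pair of genes, the odds ratio of detection was computed in each library from the 204 thinned cells with 0.5 added to each count, and a log2 value above 0 means that the RNAs shared cells more often than separate detection would give. The library, not the cell, was the unit. Each log2 odds ratio is a mean with its SD over 4 libraries, given as a description.

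Lyve1, Mrc1 and Pf4 shared cells most among the receptor and resident-type genes, and Fcna less. The median over the 6 pairs of the 4 genes was 2.21 ± 1.14 on the log2 scale, against 0.87 ± 0.19 for the 10 pairs of chemokines and 0.58 ± 0.29 for the 20 pairs that join the sets. In single libraries the resident-type median was 3.55, 1.95, 0.82 and 2.53, lowest in mutant 1, which has the fewest cells. Mrc1 and Pf4 were found together in 149 of the 204 cells (4.35 ± 1.30), and neither in 26. All 60 cells with Lyve1 also had Mrc1 and Pf4, so that the log2 odds ratios of 3.48 ± 0.92 and 3.31 ± 0.95 depend on the 0.5 that was added. The pairs of Fcna were lower and varied more, with 1.40 ± 1.66 to Pf4, 1.35 ± 1.49 to Lyve1 and 0.61 ± 2.35 to Mrc1, the last above 0 in 2 libraries.

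**Figure D3:**
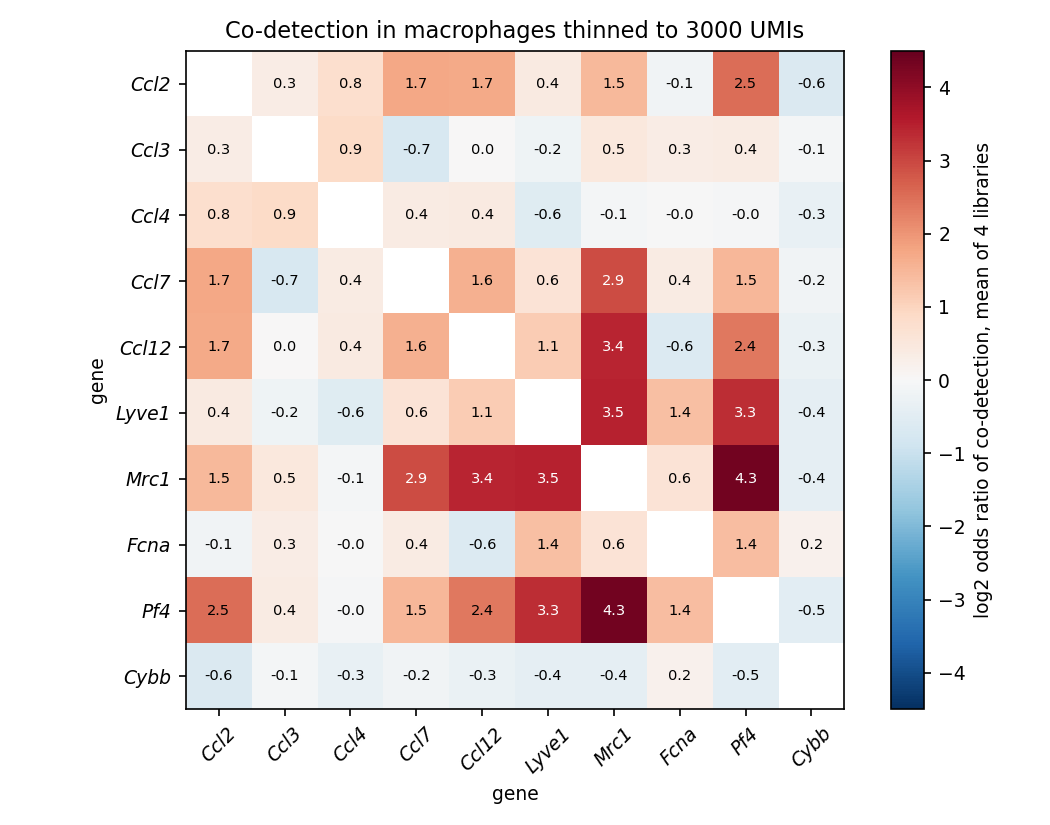
Mean log2 odds ratio of detection in the same cell for each pair of the 10 genes, over 4 libraries after thinning. The pair of Mrc1 and Pf4 is highest at 4.35, Ccl2, Ccl7 and Ccl12 lie from 1.59 to 1.74 with each other, and pairs with Cybb lie from -0.63 to 0.18.

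Among the chemokines, the neighbours Ccl2, Ccl7 and Ccl12 went together. Ccl2 and Ccl7 shared 41 cells (1.74 ± 0.30), Ccl2 and Ccl12 shared 58 (1.72 ± 0.60), and Ccl7 and Ccl12 shared 35 (1.59 ± 0.88), each above 0 in all 4 libraries. Ccl3 and Ccl4, whose genes lie side by side, shared 34 cells (0.86 ± 0.80), also above 0 in all 4 libraries but close to 0 in control 1 (0.32) and mutant 1 (0.21). Across the clusters the 6 pairs were lower than within the Ccl2 group and varied between libraries. The values of Ccl4 were 0.77 ± 1.04 with Ccl2, 0.42 ± 1.42 with Ccl12 and 0.36 ± 0.60 with Ccl7, each above 0 in 3 libraries. Those of Ccl3 were 0.34 ± 1.10 with Ccl2, 0.02 ± 1.75 with Ccl12 and -0.73 ± 1.13 with Ccl7. No pair across the clusters was above 0 in all 4 libraries.

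The Ccl2 group lay largely in cells with Mrc1, as most thinned macrophages had Mrc1. Its share was 83.0 and 83.0% in controls 1 and 2 and 72.4 and 78.7% in mutants 1 and 2. Of 55 cells with Ccl7, 54 had Mrc1 (2.92 ± 1.18), and of 87 cells with Ccl12, 84 did (3.42 ± 1.60). Ccl2 shared 91 cells with Mrc1 and was found without it in 12 (1.46 ± 1.14). Ccl12 and Pf4 shared 81 cells (2.38 ± 0.71). Ccl4 showed no such tie, with -0.08 ± 0.40 to Mrc1 and -0.05 ± 1.14 to Pf4. Cybb was near 0 or scattered with every other gene.

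Chemokine-free macrophages were fewer in controls, with 5 of 53 thinned cells (9.43%) and 4 of 47 (8.51%), than in mutants, with 8 of 29 (27.6%) and 15 of 75 cells. Cells with at least 3 of the 5 chemokines made up 35.8, 44.7, 13.8 and 30.7%. Neither set of shares overlapped between groups, and with 2 against 2 libraries no test was run on them. The chemokines were proposed with this contrast known, and no such share over other genes is given here. Nothing is therefore read from the separation. All 5 chemokines were found in 5 cells, all from controls. The median cell had 5 of the 10 genes in each control, 3 in mutant 1 and 4 in mutant 2.

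Macrophages with a Lyve1 UMI differed from the others in many genes besides the 10. The comparison summed thinned cells with and without Lyve1 in each library, with the library as a block, and used the 3 libraries with at least 10 cells on each side: 19 and 34 in control 1, 20 and 27 in control 2, 17 and 58 in mutant 2. Mutant 1 had 4 cells with Lyve1 and was left out. EdgeR called 158 of 1113 genes (14.2%), of which 91 were higher (8.18%) and 67 lower (6.02%) in cells with Lyve1. DESeq2 called 11 genes, so the extent of the difference depends on the tool. The 10 genes were proposed with earlier results known, so their own values in this and the following comparisons are descriptions, each with its p from the fit over all genes. The gene lists were also chosen with earlier results known, and their counts are likewise descriptions.

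Pf4 stood at 8421 CPM in cells with Lyve1 and at 3020 without it in control 1, at 7350 and 2901 in control 2 and at 5549 and 2374 in mutant 2. The log2 difference was 1.34 ± 0.09 with an adjusted p of 3.4e-15. Mrc1 stood at 3088 and 1480, 3017 and 1247, and 2608 and 1264 CPM (1.11 ± 0.11, adjusted p 1.2e-09). Both were higher in all 3 libraries and passed in all 10 alternatives, and mutant 1, outside the test, had Pf4 at 4417 and 2107 CPM.

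The chemokines did not move alike in this comparison. Ccl2 (0.94 ± 0.18), Ccl12 (1.12 ± 0.21) and Ccl7 (1.12 ± 0.29) were higher in cells with Lyve1 in all 3 libraries, with adjusted p of 0.000195, 0.000175 and 0.00633 in edgeR. Ccl2 and Ccl12 passed in 9 of 10 alternatives and Ccl7 in 5. Ccl4 was lower, at 351 against 578, 417 against 543 and 176 against 540 CPM, a log2 difference of -0.83 ± 0.25 with an adjusted p of 0.0190 that held in 5 of 10 alternatives. Ccl3 showed no direction (-0.00 ± 0.26). In mutant 1, outside the test, the 4 cells with Lyve1 had no Ccl2, Ccl7 or Ccl3 UMI, against 227, 107 and 160.0 CPM in the other 25 cells, while Ccl12 had 6 UMIs in the 4 cells and 19 in the others. Fcna and Cybb had too few counts for this test, and Fcna stood at 193 against 68.6, 133 against 49.4 and 78.4 against 17.2 CPM.

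**Figure D4:**
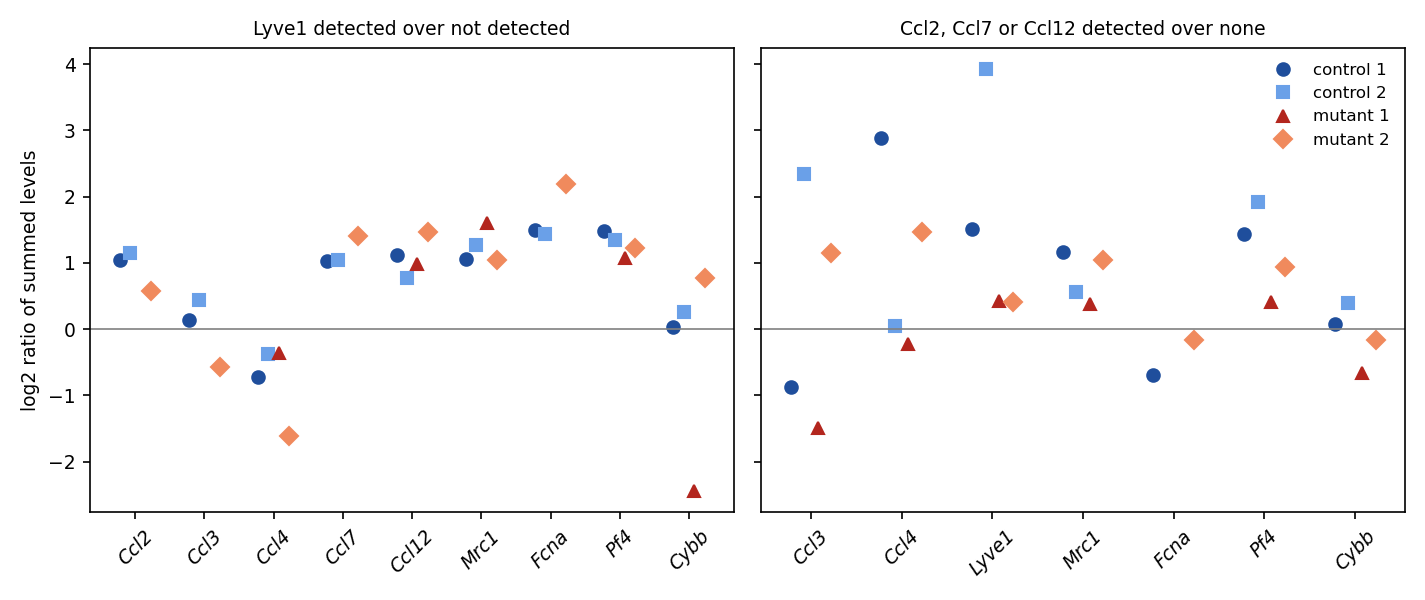
Log2 ratio of each gene's level in thinned macrophages with the named RNA over those without it, 1 point a library, with no point where a side had 0 UMIs. Pf4 and Mrc1 lie above 0 in every library of the Lyve1 comparison, and Ccl4 lies below 0 in each.

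Most of the other scavenger receptors tested were higher with Lyve1, in a list chosen with earlier results of these data known. Of 20 listed, 7 were counted well enough to be tested and 6 were higher: Colec12, Stab1, Mertk, Folr2, Fcgrt and Cd36, where 8.18% of all genes tested were higher, with a list median of 1.34 against 0.027 over all genes. Colec12, a scavenger receptor with a collagen-like stalk, stood at 650 against 88.2 CPM in control 1, 467 against 98.8 in control 2 and 648 against 155 in mutant 2 (2.33 ± 0.29). Mertk (1.35 ± 0.29) takes up dying cells, Folr2 (1.34 ± 0.35) binds folate, and Stab1 (1.40 ± 0.20) clears matrix fragments. Of 8 resident macrophage genes tested, 6 were higher, namely F13a1, Gas6, Dab2, Ltc4s, Selenop and Maf, with a median of 0.89, beside the same 8.18%. F13a1, the A chain of clotting factor XIII, stood at 3109 against 912 CPM in control 1.

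The genes that were lower with Lyve1 included Cd74 (-3.20 ± 0.59), the invariant chain of antigen presentation, Cd52 (-2.47 ± 0.33), Vim (-1.74 ± 0.25) and Lyz2 (-0.84 ± 0.18). Ribosomal protein genes such as Rpl10a (-0.65 ± 0.12) were among them too. Col1a2, a mesenchymal marker named here after its value was seen, was also lower (-2.34 ± 0.50, adjusted p 0.0012 in edgeR), and the part of mesenchymal RNA in the comparison was not tested. Immediate early and stress genes split, with Atf3 (-1.06) and Junb (-0.98) lower and Hspa1a (0.82) higher of 13 tested. From the list of complement and opsonin genes, C1qc (0.61), Fcer1g (0.50) and C1qb (0.34) were higher of 7 tested. All 3 belong to the genes that define a macrophage here. Among other chemokines, Ccl24 was higher (1.97 ± 0.30) and Cxcl2 lower (-1.35 ± 0.37). Of the 20 genes named by smallest p in each direction, 11 passed in all 10 alternatives: Pf4, Mrc1, F13a1, Dab2, Colec12, Ednrb, Stab1, Cd52, Vim, Tmsb10 and Rps27a.

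**Figure D5:**
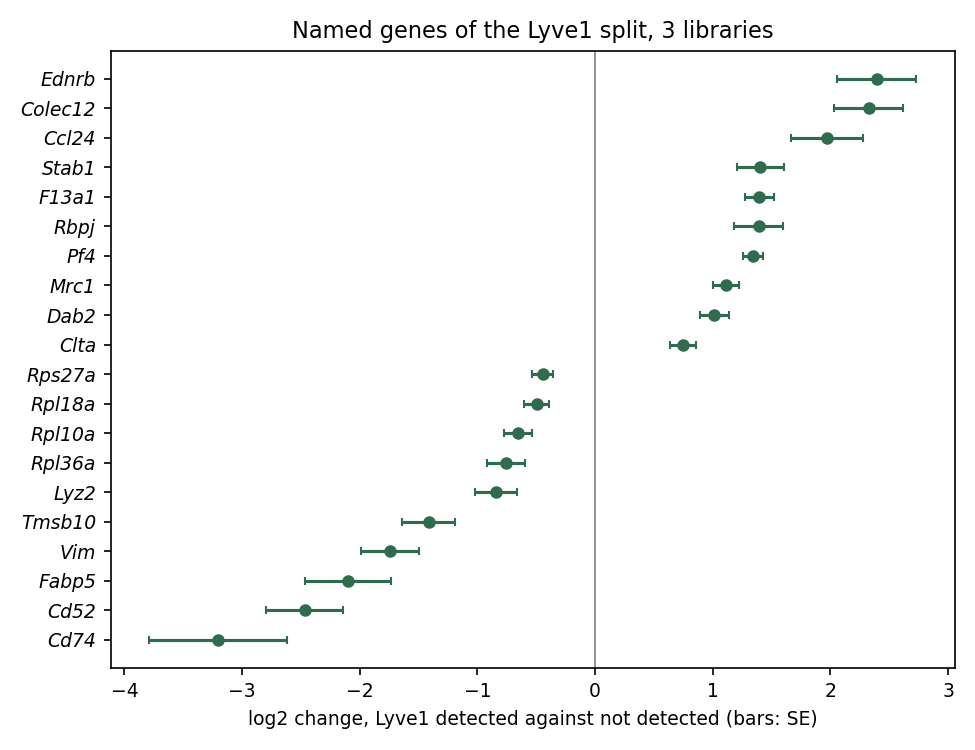
Log2 difference between thinned macrophages with and without a Lyve1 UMI, with SE, from edgeR over 3 libraries, for the 10 genes of smallest p in each direction. Pf4 and Mrc1 are among the higher genes, and Cd74 is lowest at -3.20.

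Cells with Ccl3 or Ccl4 did not differ from the rest in any gene that passed the test. All 4 libraries entered, and edgeR called 0 of 1258 genes (0%) and DESeq2 0, while 69 reached 0.05 before adjustment in edgeR. Ccl2 was at 974 against 926, 1389 against 549, 256 against 146 and 650 against 441 CPM, above in each library, but its log2 difference of 0.62 ± 0.19 had an adjusted p of 0.373. Lyve1 (-0.08), Mrc1 (-0.06), Pf4 (0.22) and Cybb (0.01) lay near 0. Among immediate early and stress genes 13 of 16 had positive values with a median of 0.40, against 0.0056 over all genes, and none passed.

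Cells with Ccl2, Ccl7 or Ccl12 could be compared with the rest in control 1, mutant 1 and mutant 2, since control 2 had only 7 cells without any of them. EdgeR called 10 of 1064 genes (0.94%), 6 higher (0.564%) and 4 lower (0.376%). Pf4 was higher at 6035 against 2222, 2786 against 2089 and 3822 against 2000 CPM (0.95 ± 0.16, adjusted p 1.3e-06), and Mrc1 at 2439 against 1089, 1881 against 1444 and 1978 against 956 (0.88 ± 0.18, adjusted p 0.000343). Ccl4 was higher as well (1.63 ± 0.33, adjusted p 0.000343), though its single-library values were 2.89, -0.22 and 1.47. Cd74 (-2.26 ± 0.46), Vim, Lyz2 and Tmsb10 were lower, and Dab2, Ifi27l2a and Ms4a6b higher. None of the 10 genes passed in DESeq2 or without control 1, so the calls rest on that library and on the tool. Lyve1 had a difference of 0.88 ± 0.37 with an adjusted p of 0.379.

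The genes whose level across thinned macrophages most followed the summed UMIs of Lyve1, Mrc1, Fcna and Pf4 were ranked by the mean of the within-library Spearman correlations. Over 3933 genes and 4 libraries, Dab2, an adaptor of clathrin-coated pits, came first (0.62), followed by Clta, the clathrin light chain A (0.60), Stab1 (0.59), the sorting nexin Snx2 (0.55), Igfbp4 (0.54), F13a1 and C1qc (0.53 each), Gas6 (0.52), Snx6 (0.51) and Ltc4s (0.50). All cells of a library share its preparation, and C1qc is one of the genes that define the cells. For the summed chemokines the best was Ms4a6b at 0.31, and the tenth was at 0.24, which at these counts is weak.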

How the data were processed

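The deposited files hold UMI counts per gene and cell barcode, made with Cell Ranger 8.0.1 per the file headers. The submitters' processing notes name Cell Ranger 4, Seurat 4.3.0 and mm10, a conflict that the sources used here do not settle. From the deposited counts, cells were filtered and macrophages chosen by the rule in the report. A barcode passed a cell type rule with at least 4 of 6 marker genes. Doublets were not called; macrophages passing another rule were left out as an alternative. Counts were summed per library (and per side of each split, after thinning to 3000 UMIs) and compared by the quasi-likelihood test of edgeR 4.0.16 in R 4.3.3, after filterByExpr and TMM scaling, at an adjusted p of 0.05 over all genes tested. DESeq2 1.42.0, other filters and scalings and leaving out each library were alternatives. The scripts were tested on simulated data. Named genes were all 10 members, in each split the 10 of smallest p per direction among those past the threshold, and the genes of 10 lists that passed. Genes named as examples of lists without a call were chosen after their values were seen. Members and lists were chosen with earlier results of these data known. Clec7a was not analysed here.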

Additional observations from a re-analysis of the deposited data

Results flagged for a closer look

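Cybb went in opposite directions in the control and mutant libraries after thinning. Its level in macrophages with Ccl2, Ccl7 or Ccl12 over that in macrophages without them was, on the log2 scale, 0.074 in control 1 and 0.392 in control 2 against -0.659 in mutant 1 and -0.170 in mutant 2. The mutant mean minus the control mean was -0.648. The difference was not tested, and control 2 had only 7 cells on 1 side and 2 Cybb UMIs in them. With no thinning the values were -0.395, 0.879, 0.732 and -0.278, and the groups were not separated. After thinning, Ccl3 in macrophages with Lyve1 over those without was 0.13 and 0.43 in controls 1 and 2 and -0.57 in mutant 2. In mutant 1, where only 4 cells had Lyve1, Ccl3 had 0 against 12 UMIs. With no thinning the Ccl3 values were -0.205 and 1.54 in controls 1 and 2 and -3.82 and -0.544 in mutants 1 and 2. Control 1 then went the same way as the mutants. That difference was not tested either.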

How the results depend on the processing

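Over 86 results and 802 values, 28 values changed direction, most of them small. In macrophages of mutants against controls, where edgeR called 0 genes, DESeq2 called 9, no filter on low counts 140, the replicate block 2, leaving out macrophages that passed the mesenchymal, endothelial, epithelial, neuronal or muscle rule 5, leaving out those that passed any rule except the monocyte and dendritic ones 4, and leaving out 1 library gave 77 to 140. In mesenchymal-like cells, also with 0, these were 60 by DESeq2, 590 with no filter and 37 with the block, and 2 to 382 with 1 library left out. The 158 genes of the Lyve1 comparison became 11 by DESeq2, 66 with no replicate block, 388 with no thinning and 81 to 165 with 1 library left out. For Ccl3 or Ccl4, 0 became 8 with no filter, 2 with macrophages of another rule left out and 0 to 5 with 1 library left out. For Ccl2, Ccl7 or Ccl12, 10 became 0 by DESeq2, 3 with no block, 3 with no thinning, 5 with 5 markers required and 0 to 16 with 1 library left out. The difference in macrophage share ranged from -0.888 to 0.0985 points. With no thinning the median log2 odds ratios were 1.57 among chemokines and 1.44 between the sets. Same-numbered libraries share only a number, and their deviations correlated at 0.0019 in macrophages and -0.0130 in mesenchymal-like cells. Directions changed as follows. In the Lyve1 comparison Ccl3 was 0.0107 with no block and 0.21 with no thinning. For Ccl3 or Ccl4, Ccl7 was 0.0877 and Mrc1 0.18 with no thinning, Lyve1 was 0.0178 with no block and 0.42 with no thinning, and Cybb was -0.0047 with DESeq2 size factors, -0.0884 with no block, -0.0507 with no thinning, -0.0658 with 5 markers and -0.0197 with macrophages of another rule left out. For Ccl2, Ccl7 or Ccl12, Ccl3 was -0.26 by DESeq2, -0.0120 with 5 markers and -0.0475 with another rule left out, and with no thinning Cybb was 0.0525 and Lyz2 0.15. With 1 library left out, Ccl3 ranged from -1.07 to 0.0085 between mutants and controls, from -0.30 to 0.27 in the Lyve1 comparison and from -0.99 to 0.59 in the Ccl2, Ccl7 or Ccl12 comparison. In the Ccl3 or Ccl4 comparison Ccl7 ranged from -0.36 to 0.21, Lyve1 from -0.32 to 0.22, Mrc1 from -0.15 to 0.015 and Cybb from -0.0685 to 0.0069. The difference in the share of cells ranged from -19.0 to 1.88 points for Ccl3 and from -3.59 to 6.16 for Ccl4. The causes were not tested. Each library had 34 to 78 macrophages. With 2 against 2 libraries the permutation test could not go below p = 0.33, so no difference in shares of any size could pass 0.05. Leaving out a library leaves 1 in its group, which is assumed to vary like the other group.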
